A study of Mus musculus with 2 samples.

Results

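Heat shock proteins and their co-chaperones were examined in sorted bone marrow neutrophils of mice. The members were taken by symbol. They were the Hsp90 alpha gene, the Hspa, Hspb, Hspd, Hspe and Hsph genes, the Dnaja, Dnajb and Dnajc genes, Bag1 to Bag6, the Hsf genes, and the subunits of the cytosolic chaperonin, which are Tcp1 and the Cct genes. Hspa5, Hspa9, Hsp90b1, Dnajb9, Dnajb11, Dnajc3, Dnajc10 and Dnajc19, which serve the endoplasmic reticulum or the mitochondrion, were left out. This gave 83 of 18193 genes on the array, with 191 probe sets. The name "cytosolic" fits most members but not all. Hspd1, Hspe1, Dnaja3, Dnajc11, Dnajc15 and Dnajc30 encode mitochondrial proteins, and Hspa13, Dnajb12, Dnajb14 and Dnajc1 encode proteins of the endoplasmic reticulum. Hspb11 and Hsf2bp share a symbol stem only, since the first encodes a ciliary transport protein and the second a partner of heat shock factor 2 that is known from meiosis. Hsf1 and Hsp90ab1 were not analysed here.

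The cells were neutrophils of a mixed C57BL/6 and 129/J background, sorted for CD11b and Ly6G with low Ly6C. There was 1 array of cells labelled Jdp2 KO and 1 of cells labelled Jdp2 WT. The sources used here do not give ages, the design of the Jdp2 allele or the number of animals behind each array. With 1 array per genotype there is no replicate, no spread between mice and no test, so that the precision of each value is limited by that number of arrays. Signals are log2 values summarised by RMA. Differences were taken as knockout label minus wild-type label, so that a difference of 1 is 2-fold. The stronger probe set of Jdp2, a leucine-zipper repressor of the AP-1 group, read 12.38 on the array labelled knockout and 11.997 on the array labelled wild type, so the targeted gene did not check the labels. All 13 neutrophil markers that had a probe set lay above the array median on both arrays, with differences from -0.43 to 0.24.

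Heat shock proteins bind unfolded chains of other proteins and help them to fold. Hsp70 proteins work in cycles of ATP hydrolysis that J-proteins, the products of the Dnaj genes, start and that Hsp110 and Bag proteins end by nucleotide exchange. Hsp90 finishes the folding of kinases and receptors, small heat shock proteins hold unfolded chains, and the barrel-shaped chaperonin folds actin and tubulin. Heat shock factors switch on the inducible members by binding heat shock elements, which are GAA units that alternate in direction along the DNA.

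Heat shock elements were searched in the 250 bases before each start site of RefSeq (GRCm38.p6), on both strands, since the inducible members share this control. A run of at least 3 units holds GAANNTTC and TTCNNGAA with 1 unit in common. It stood before 3 of the 68 member genes with a promoter window (4.41%), against 139 of 27025 genes with a window (0.514%). A run of at least 2 units, either GAANNTTC or TTCNNGAA alone, stood before 17 of the 68 (25.0%), against 14.5% of all genes. Each of these 8-base motifs is its own reverse complement, and every run of at least 3 contains both. The CCAAT box, with its reverse complement ATTGG, stood before 33.8% of the 68 and 37.5% of all genes. A gene counted when the window of any of its starts held the motif. Hspa1a and Hspa1b, with nearly the same promoter sequence, counted separately, as did Hspd1 and Hspe1, which share a stretch. A match is only a match of letters, and these windows hold no distant elements.

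The 3 genes with a run of at least 3 units were Hspe1, Hspd1 and Dnajb6. Hspe1 and Hspd1 lie head to head on chromosome 1, with the starts used here 216 bases apart, and hold the same stretch, chr1:55088053-55088082, read on opposite strands. This stretch has 4 units in a row, and that of Dnajb6 has 3. Another listed start of Hspd1, at chr1:55088243, has no run of units in its window. The shared stretch is shown on the strand of each gene because the readings of the 2 genes are compared below, and capitals mark the heat shock units.

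Hspe1, plus strand: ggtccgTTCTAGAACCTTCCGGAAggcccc

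Hspd1, minus strand: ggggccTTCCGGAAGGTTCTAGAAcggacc

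Dnajb6, chr5:29735832-29735884, plus strand: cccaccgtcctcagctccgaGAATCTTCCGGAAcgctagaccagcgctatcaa

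The next stretches hold 2 units in a row, in capitals, and belong to members whose values are described below: 4 that read higher on the array labelled knockout, and Dnaja1, which read lower. They are a part of the 8 passing members with a run of only 2 units, of which 5 read higher and 3 lower. The stretches of Hspb6, Cct2 and Cct5 are not shown. The Hspa1b stretch is also found, letter for letter, before Hspa1a at chr17:34972233-34972280. The Hspb1 stretch holds such a run at 2 places.

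Hsph1, chr5:149636342-149636389, minus strand: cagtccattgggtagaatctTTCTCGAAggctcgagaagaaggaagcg

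Dnajb4, chr3:152193846-152193879, minus strand: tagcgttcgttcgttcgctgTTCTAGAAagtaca

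Hspa1b, chr17:34959315-34959362, minus strand: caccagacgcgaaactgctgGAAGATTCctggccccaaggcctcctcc

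Hspb1, chr5:135887782-135887849, plus strand: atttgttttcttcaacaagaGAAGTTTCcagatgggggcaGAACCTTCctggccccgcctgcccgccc

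Dnaja1, chr4:40722338-40722357, plus strand: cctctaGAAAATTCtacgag

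Most members read alike on both arrays. Each gene took the values of its brightest probe set over both arrays and passed the level filter when it reached the array median on at least 1 array. Of the 83 members, 58 passed and 25 did not. Among the 58, the J-protein gene Dnajb4 and the Hsp110 gene Hsph1 were at least 2-fold higher on the array labelled knockout (3.45%, against 3.06% of all 11168 passing genes). The J-protein gene Dnajb2 and the ciliary gene Hspb11 were at least 2-fold lower (3.45%, against 2.33%). Both shares lie close to those of all genes. By probe set, 5 of the members' 118 passing probe sets were at least 2-fold higher (4.24%, against 2.81% of all 19604) and 6 were at least 2-fold lower (5.08%, against 2.33%). The median difference of the 58 was -0.0053, against -0.04 for all passing genes, and 43 of them (74.1%) lay within 0.5 of 0, against 77.9% of all. The median of the members was above 0 after quantile normalisation (0.04) or removal of a loess trend (0.04) and below 0 after centring on array medians (-0.02).

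**Figure D1:**
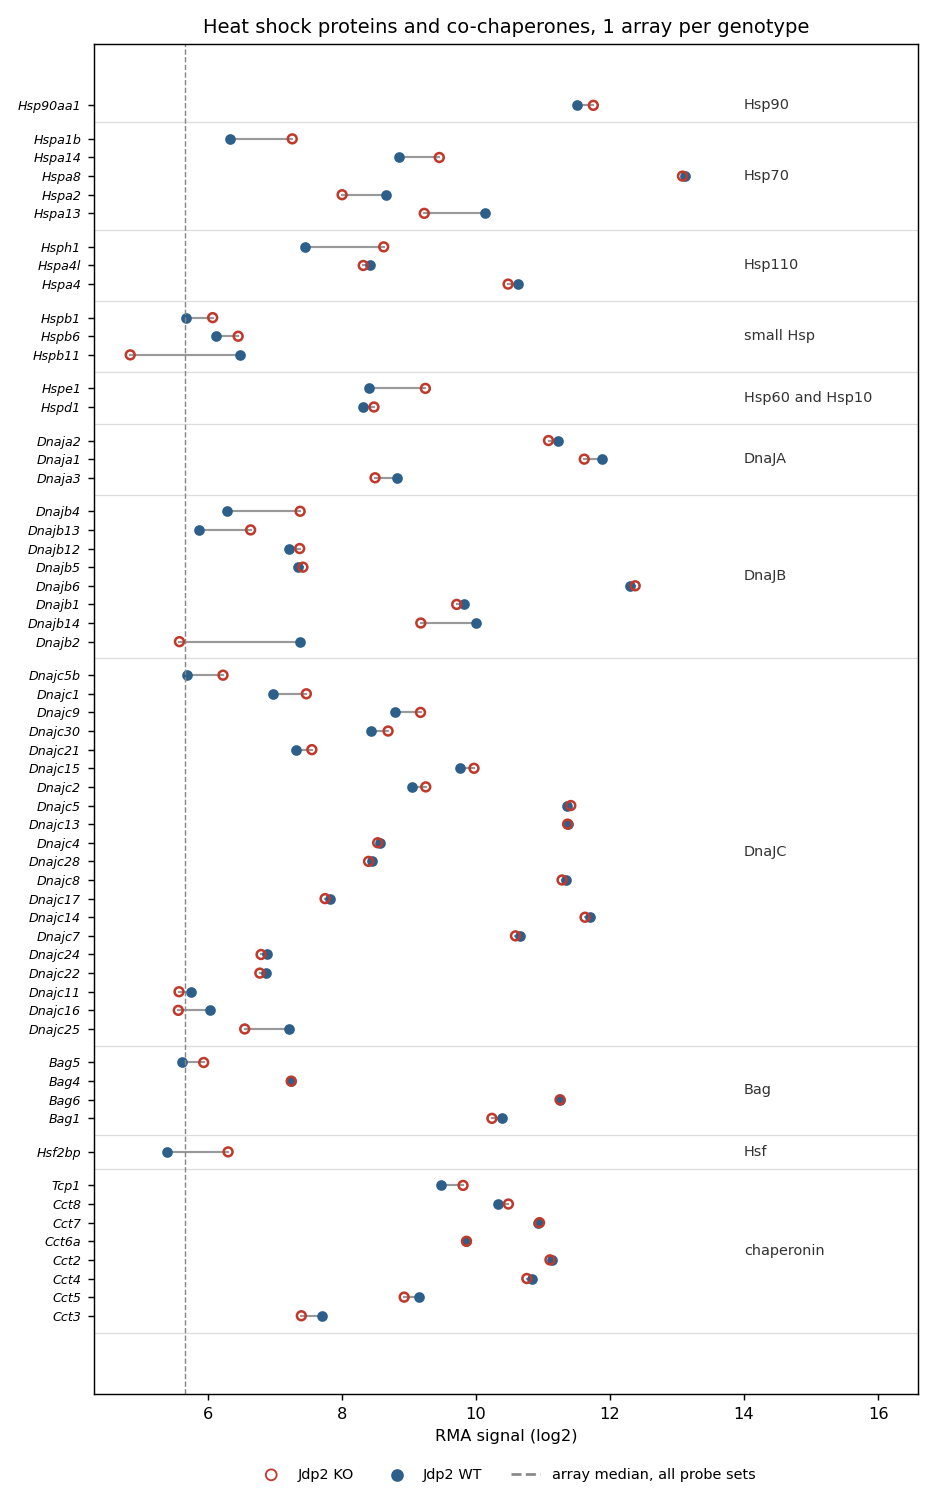
RMA signal (log2) of the 58 members that passed the filter, by family, with 1 open red circle for the array labelled Jdp2 KO and 1 filled blue circle for the array labelled Jdp2 WT per gene. For most genes the 2 circles nearly coincide; Dnajb4 and Hsph1 lie apart with the red circle higher, and Dnajb2 and Hspb11 with the red circle lower.

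Hsph1 encodes an Hsp110 protein that is induced by heat and acts as an exchange factor for Hsp70. Its stronger probe set (1425993_a_at) read 8.62 on the array labelled knockout and 7.45 on the other, a difference of 1.17 or 2.25-fold. Its second probe set (1423566_a_at) read 3.79 and 3.99, below the array median on both, and the mean difference over the 2 was 0.48. The other Hsp110 genes were close to level. Hspa4 read 10.48 and 10.62, and Hspa4l read 8.32 and 8.42. Their passing probe sets, 4 and 5 in number, lay on both sides of 0, from -0.91 to 0.29 for Hspa4 and from -0.83 to 0.38 for Hspa4l.

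Of the 9 Hsp70 genes, 5 passed, 2 above and 3 below 0. Hspa1b, which encodes the classic heat-inducible Hsp70, read 7.26 on the array labelled knockout and 6.33 on the other (1452318_a_at), a difference of 0.93. Its other probe sets lay below the array median and differed by 0.54 and 0.53. The promoters of Hspa1a and Hspa1b, whose starts lie 12918 bases apart, have the same base at 247 of 250 positions before the start, and their coding sequences are nearly identical. Signal of the copies is therefore uncertain. The probe set annotated to Hspa1a alone read 3.03 and 3.14, below the filter.

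Hspa8, the Hsp70 that cells make without stress, read 13.08 and 13.12, in the top 1% of both arrays. Its 4 passing probe sets ran from -0.30 to 0.24. Hspa14, a ribosome-associated Hsp70, differed by 0.59 at its strongest probe set, but its other passing probe sets differed by -0.16 and -0.44. Hspa2, known for its role in sperm formation, has 1 probe set, which read 8.66 on the array labelled wild type and differed by -0.65.

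Hspa13, an Hsp70 of the endoplasmic reticulum, was lower on the array labelled knockout at each of its 3 passing probe sets. The strongest read 9.23 against 10.13, and the differences were -0.90, -0.85 and -1.196. Another probe set, below the filter, differed by -0.02. Hspa12a, Hspa12b and Hspa1l did not pass.

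Hsp90aa1, the inducible Hsp90, read 11.75 on the array labelled knockout and 11.51 on the other, a difference of 0.24. Its 3 passing probe sets lay between 0.16 and 0.24. They are close together, while its weakest probe set, under the filter, differed by -0.71.

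Hspe1 and Hspd1 encode Hsp10 and Hsp60, which form the folding chamber of mitochondria. They are the head-to-head genes with the shared element shown above. Hspe1 read 9.25 on the array labelled knockout and 8.41 on the other (1450668_s_at), and 7.57 and 6.96 at its second probe set, differences of 0.83 and 0.61. Hspd1 read 8.48 and 8.32, a difference of 0.16 from its 1 probe set. The readings of this gene pair thus differed by unequal amounts across their common promoter. Hspa9, the mitochondrial Hsp70 that the rule left out, differed by 0.63 at its brightest probe set, and its 4 passing probe sets ran from -0.10 to 0.70.

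Of the 8 genes with an Hspb symbol, 3 passed. Hspb1, which encodes Hsp25, a small heat shock protein that is induced by stress and binds actin, differed by 0.39 and 0.74 at its 2 probe sets, the first of which read 6.07 and 5.68. Hspb6, a relative known from muscle, read 6.45 and 6.13. Hspb11 read 4.84 on the array labelled knockout and 6.48 on the other at the probe set that represented it (1425935_at), a difference of -1.63, while its second passing probe set differed by 0.35, and the mean of both was -0.64. With readings below an array's median set to that median, its difference came to 1.75-fold. These levels lie near the array medians of 5.67 and 5.65, where RMA signal holds much background.

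J-proteins bring clients to Hsp70 and trigger its ATPase. Of their 40 genes, 31 passed, 13 above and 18 below 0, with a median of -0.06. The share above 0 was 41.9%, against 44.8% of all passing genes. After quantile or loess normalisation that median was above 0 (0.02 and 0.01).

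The DnaJA genes, whose products resemble bacterial DnaJ most closely, passed in 3 of 4 cases, and those 3 were lower on the array labelled knockout. Of all passing genes, 55.1% lay below 0. Dnaja1 read 11.62 against 11.88, and its 3 probe sets differed by -0.26, -0.42 and -0.51. Dnaja2 read 11.08 against 11.22, with 1 of its 3 passing probe sets above 0 (0.05). Dnaja3, which works in mitochondria, differed by -0.33, and by -1.78 at a weaker probe set that read 5.33 against 7.11. The median of these 3 genes, -0.26, was below 0 under each scaling tried, from -0.28 to -0.24. The median of all passing genes was also below 0 under each, from -0.05 to -0.006.

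Among the DnaJB genes, Dnajb4, an Hsp40 that works with Hsp70, was higher at both of its passing probe sets. The first (1431734_a_at) read 7.38 on the array labelled knockout and 6.28 on the array labelled wild type, and the second (1451177_at) read 7.35 and 6.18. The differences were 1.10 and 1.17, or 2.14-fold and 2.25-fold. It was the only member with 2 probe sets past 2-fold in the same direction. The third probe set, near the floor of the scale, differed by 0.07, and the mean over all 3 was 0.78.

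Dnajb2, which sorts clients of Hsp70 for degradation by the proteasome, read 5.58 on the array labelled knockout and 7.37 on the other (1448657_a_at). The difference was -1.80, or 3.27-fold lower with the weaker reading set to its array's median. It has 1 probe set. Dnajb14, a J-protein in the membrane of the endoplasmic reticulum, read 9.18 against 10.01 and, at a weaker probe set, 6.01 against 7.19, differences of -0.83 and -1.18. Dnajb12, its paralogue in the same membrane, differed by 0.16 and -0.43 at its 2 probe sets.

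The remaining DnaJB genes were closer to level or weak. Dnajb1, the heat-inducible Hsp40, read 9.71 and 9.82, with differences of -0.11 and -0.08. Dnajb6, which keeps polyglutamine proteins from aggregating and has the heat shock element shown above, read 12.38 and 12.30, and its 4 probe sets ran from -0.13 to 0.12. Dnajb5 differed by 0.07. Dnajb13, a sperm protein, differed by 0.76 at 6.64 against 5.88.

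The DnaJC group holds proteins that share only the J-domain. Of its 25 genes 20 passed, none of them 2-fold different at its brightest probe set, with differences from -0.67 for Dnajc25 to 0.54 for Dnajc5b. Dnajc5, the cysteine string protein of secretory vesicles, was level, with 5 probe sets between -0.12 and 0.11. Dnajc13, an endosome protein, differed by -0.01 at its brightest probe set and by 0.63 at its second. Dnajc8, a splicing factor, differed by -0.06 and 0.08 at its 2 probe sets, and Dnajc7, a co-chaperone of Hsp70 and Hsp90, by -0.07. Dnajc2, the J-protein of the ribosome-associated complex, read 9.25 and 9.05, but its weaker probe sets differed by 0.86 and 1.44. Dnajc9, a histone chaperone, read 9.17 and 8.79, and Dnajc1 differed by 0.50, with passing probe sets from -0.05 to 0.72. The group's median, -0.05, was above 0 after quantile or loess normalisation.

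Bag proteins release clients from Hsp70. Bag6, which guards tail-anchored membrane proteins, read 11.25 and 11.26, and Bag1 read 10.24 and 10.39. Bag4, a silencer of death receptors, read 7.24 on both arrays. Bag5 differed by 0.33 and 0.62 at its 2 probe sets, at readings close to the array medians. Bag3, the stress-induced member that directs clients to autophagy, lay below the filter at 4.08 and 3.52, as did Bag2.

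Of the heat shock factors themselves, Hsf2, Hsf4 and Hsf5 lay below the filter. Hsf2 read 3.96 on the array labelled knockout and 3.68 on the other. Hsf2bp, the meiotic partner, read 6.30 against 5.39, a difference of 0.92, and its second probe set lay below the filter.

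By the brightest probe set of each gene, the cytosolic chaperonin was close to even across the arrays. Of the 10 genes, 8 passed, and their differences ran from -0.31 for Cct3 to 0.34 for Tcp1, with 4 above and 4 below 0. Cct2 read 11.10 and 11.13, Cct4 10.76 and 10.84, Cct6a 9.86 and 9.85, Cct7 10.95 and 10.92, and Cct8 10.48 and 10.33. Cct5 differed by -0.23. Single probe sets differed by more: one of Cct3 (1448178_a_at) by -1.27, and one of Cct4 (1415868_at) by 1.199, at 7.89 against 6.69. All 5 passing probe sets of Cct3 lay below 0, from -1.27 to -0.17. With probe sets ending in _s_at or _x_at left out, the probe set at -1.27 represents Cct3. Cct6b, a subunit known from testis, and Cct8l1 did not pass.

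Agreement between probe sets limits what can be said of a gene. Of the 33 members with at least 2 passing probe sets, 15 (45.5%) had all of them on the same side of 0, against 52.2% of the 4867 such genes on the array. Of the 15, 8 were above 0: Dnajb4, Dnajc2, Hspe1, Hspb1, Bag5, Hsp90aa1, Dnajb5 and Cct6a. The 7 below 0 were Dnaja3, Dnajb14, Hspa13, Cct3, Dnaja1, Dnajc14 and Dnajb1. The median SD between probe sets of a gene was 0.22 for the 33 members and for all such genes. Probe sets of an array share their RNA, so this SD holds no spread between mice.

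**Figure D2:**
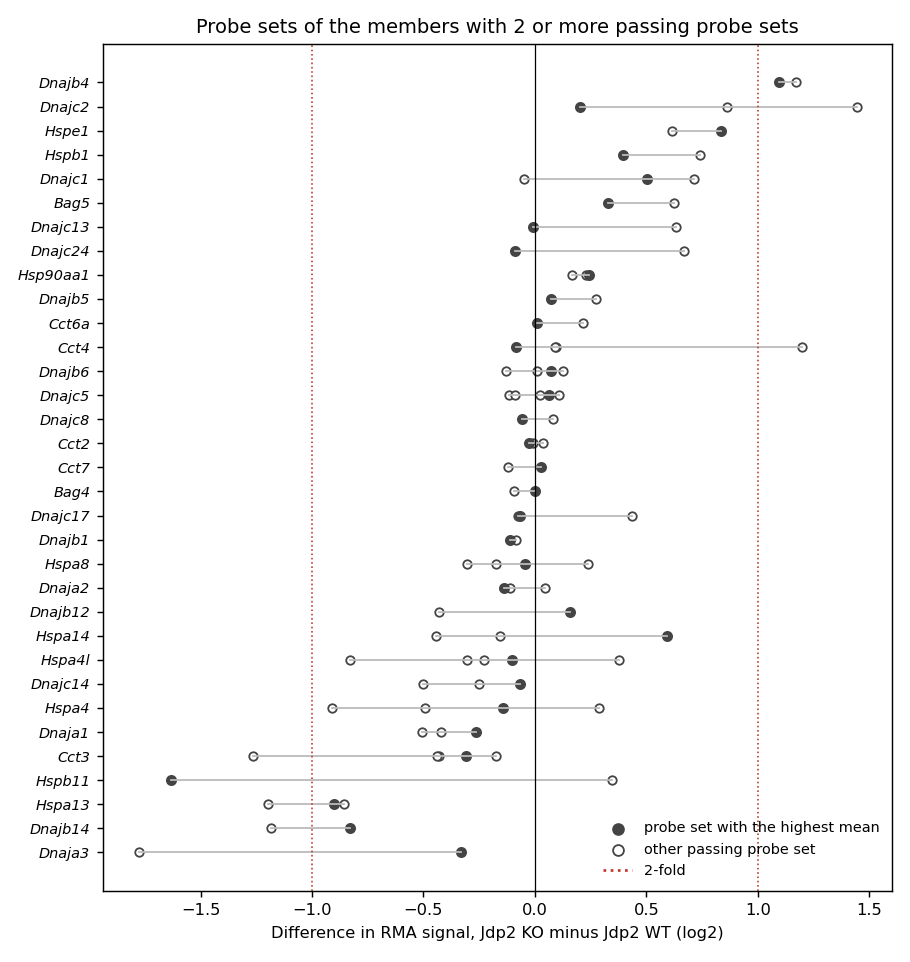
Difference in RMA signal (log2, Jdp2 KO minus Jdp2 WT) of each passing probe set, for the 33 members with at least 2. Filled points are the probe sets with the highest mean, open points the others, and dotted lines mark 2-fold; both points of Dnajb4 lie past 2-fold, while those of Hspb11 lie on opposite sides of 0.

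The heat shock units shown above were then set beside the differences. Among the 47 passing members with a promoter window, the 3 with a run of at least 3 units differed by 0.07 (Dnajb6), 0.16 (Hspd1) and 0.83 (Hspe1). Hsp90aa1 and Hspa8 had no window here and are not among the 47. The 8 with a run of only 2 units had a median difference of 0.36, with 5 above 0. They were Hsph1 (1.17), Dnajb4 (1.10), Hspa1b (0.93), Hspb1 (0.39), Hspb6 (0.32), Cct2 (-0.03), Cct5 (-0.23) and Dnaja1 (-0.26). The other 36 had a median of -0.06, with 14 above 0. Of all passing genes, 44.8% lay above 0. The differences of genes outside the members that carry such a run were not examined, so these medians have no background to be set against. Both members at least 2-fold higher carried a run of 2 units. The 2 at least 2-fold lower, Dnajb2 and Hspb11, carried none. Both passed the filter only through the array labelled wild type, and Hspb11 shares a symbol stem only. No link between units and direction can be read from these 4 genes. Of the 47, 11 (23.4%) carried a run of at least 2 units, so most of the 47 carried none. Dnajb1, called heat-inducible above, was among those without, so lack of a run does not mean lack of heat induction. Averaged over their probe sets, Hsph1 (0.48) and Dnajb4 (0.78) were not past 2-fold. Dnajb4, Dnaja1, Cct2, Cct5 and Hspb6 also have listed starts with no such run in their windows. These counts describe genes chosen by symbol on 2 arrays, and the part of the element in any difference was not tested.

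**Figure D3:**
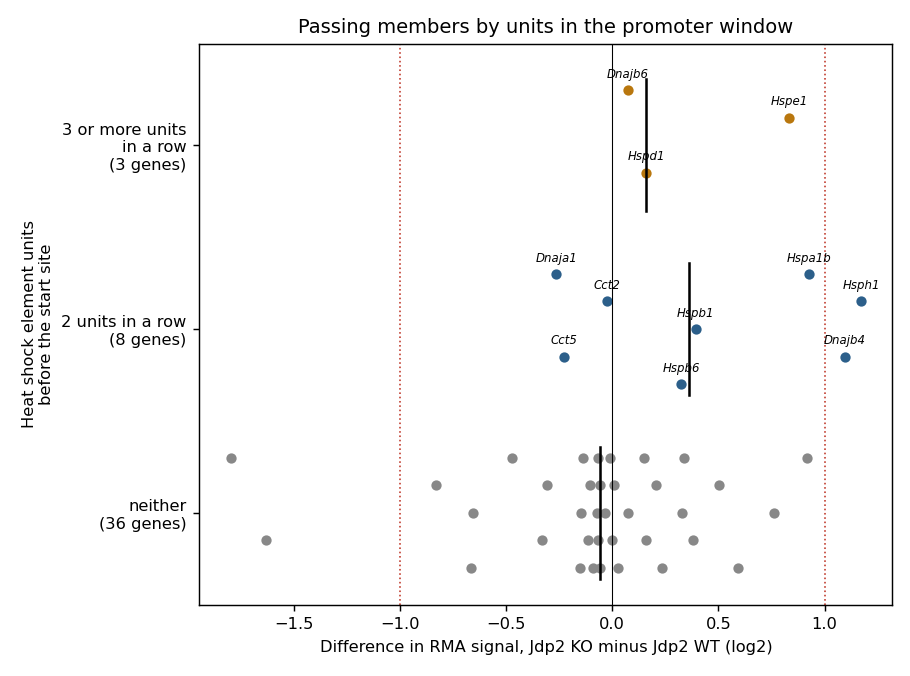
Difference in RMA signal (log2, Jdp2 KO minus Jdp2 WT) of the 47 passing members with a promoter window, by whether the 250 bases before any listed start hold a run of at least 3 heat shock units, of only 2, or neither, with group medians as black bars and 2-fold as dotted lines. The medians are 0.16 for at least 3 units, 0.36 for only 2 units and -0.06 for neither, and the groups overlap.

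The proteins that work with Hsp90 and Hsp70 but carry other symbols were lower on the array labelled knockout more often than not. Of the 20 measured of a list of 23, 17 lay below 0 (85.0%, against 55.1% of all passing genes), with a median of -0.22 and none past 2-fold at its brightest probe set. The median stayed below 0 under each scaling tried, from -0.23 to -0.14. Of the 17, St13 (-0.01) and Sugt1 (-0.04) were close to level. Fkbp4 read near the array medians and came to 0.02 with readings under them raised to them. The list was chosen with earlier results of these data known. Stip1, which links Hsp70 to Hsp90, read 7.29 against 8.14, a difference of -0.85 from its 1 probe set, the largest of the list by brightest probe sets. Tomm70a, a receptor for chaperone-bound proteins at the mitochondrion, differed by -0.65, with passing probe sets from -0.73 to -0.36. Hikeshi, the importer of Hsp70 into the nucleus, differed by -0.56 and -0.49 at its 2 probe sets. The Hsp90 ATPase activator Ahsa1 differed by -0.24, and by -1.01 at its second probe set. The myosin chaperone Unc45a differed by -0.36, with 4 passing probe sets from -1.07 to -0.23. The 3 above 0 were Fkbp5, an Hsp90 partner that glucocorticoids induce (0.24), Nudc (0.22) and Tomm34 (0.02). The other passing probe set of Fkbp5 differed by -0.12, so its probe sets lay on both sides of 0, and that of Nudc by 0.95.

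Prefoldin and tubulin-folding genes, which hand chains to the chaperonin or take them over, had a median of -0.06 over 13 genes. Pfdn5, a prefoldin subunit, read 12.45 and 12.47, Pfdn4 differed by -0.64 and Tbcb by -0.33. The 7 measured paralogues left out by the rule had a median of -0.03. Hspa5, the main Hsp70 of the endoplasmic reticulum, read 11.74 and 11.90, and Hsp90b1, its Hsp90, differed by -0.55. Proteasome subunits, which degrade what chaperones cannot fold, had a median of -0.06 over 31 genes, with Psmc5 at -0.997, Psmb5 at -0.35 and Psmb3 reading 12.05 and 12.12.

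**Figure D4:**
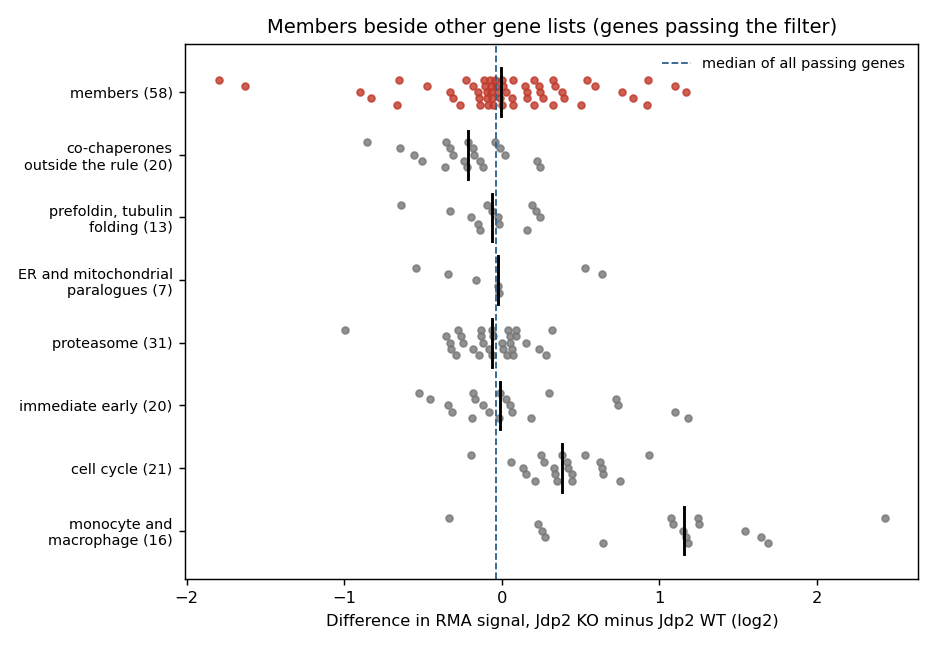
Difference in RMA signal (log2, Jdp2 KO minus Jdp2 WT) of each passing gene, for the 58 members in red and 7 other lists in grey, with list medians as black bars and the median of all passing genes as a dashed line. The members centre on 0 and spread to both sides, the co-chaperones outside the rule centre on -0.22, and the monocyte and macrophage markers on 1.16.

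Markers of other cells moved between the same arrays. Of 16 passing monocyte and macrophage markers, 11 were at least 2-fold higher on the array labelled knockout and 15 lay above 0, with a median of 1.16. With readings under an array's median raised to it, 7 of the 16 were at least 2-fold higher. Their linear signal summed over 17 measured genes was 14545 there and 11227 on the array labelled wild type. Primary granule genes of promyelocytes were at least 2-fold higher in 6 of 9 cases (median 1.05; signal summed over the 9 genes 27625 and 21971), with Mpo at 5.09. Of these 9 genes, 7 lay above 0, while Cebpa (-0.35) and Myb (-0.30) lay below it. Platelet markers were at least 2-fold higher in 3 of 7 cases (median 0.76; signal summed over 8 measured genes 4886 and 2921). Among these 7, 5 lay above 0, while Itga2b (-0.34) and Itgb3 (-0.20) lay below it. Cell cycle genes lay above 0 in 20 of 21 cases (median 0.38). Immediate early genes, which rise when cells are handled, had a median of -0.01 over 20 genes, with Atf3 (1.18) and Egr3 (1.10) past 2-fold and Fos level at 13.996 and 13.97. Median differences were -0.27 for 3 erythroid, 0.0046 for 6 B cell and 0.30 for 5 T and NK cell markers that passed. Past 2-fold among them were the erythroid gene Car2 (-1.29) and the B cell gene Igll1 (1.15). Igll1 came to 0.68 with readings under the array median raised to it. The B cell gene Ighm differed by -0.93. Summed over all measured markers, the signals were 1015 and 1307 for 8 erythroid, 1217 and 1619 for 10 B cell, and 1634 and 1325 for 8 T and NK cell genes. No marker is listed at 0, since RMA values have no true zero. Their part in the values of Hsph1, Dnajb4, Hspa1b, Hspe1, Dnajb2, Hspa13 and Dnajb14 was not tested. In bulk RNA, fewer cells of a type and less RNA per cell cannot be told apart.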

How the data were processed

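The authors deposited 1 log2 value per probe set and array, summarised by RMA per the submitters' processing notes. The sources used here do not give its version or its background and normalisation steps. Of 45101 probe sets, 64 controls were left out. Of the other 45037, 34945 had 1 gene symbol in the platform annotation, and 34741 of these were updated by Entrez identifier against RefSeq (GRCm38.p6); 932 with several symbols and 9160 unlisted ones stayed unnamed. Genes were represented by the probe set of highest mean, filtered at the array median, and counted past a log2 difference of 1 in Python 3.11.15 with pandas 2.3.3. The procedure was tested on simulated data, made of shuffled and shrunken differences with large known shifts added. That test checks the code only and cannot show how reliable a 2-fold difference between these arrays is. Technical spread was the SD of differences between passing probe sets of a gene. RMA gives no detection call, and true differences of weak genes can be understated. Yet shares past 2-fold were larger with weaker genes kept. They were 3.06% higher and 2.33% lower with the filter at the array median, against 1.75% and 1.38% at the 75th percentile. A large difference of a weak gene is therefore not a conservative value.

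Members and lists were chosen with earlier results of these data known. Every member could be named. For other lists the rule allowed the genes past 2-fold, the gene of highest mean and the 2 with the largest differences; not all of these were named, marker lists being given mostly as counts, and any other gene named was chosen after its values were seen. Promoter windows came from RefSeq; 68 of 83 members matched by symbol. Alternatives were 3 other level filters, 3 scalings (loess span 0.3), 2 choices of probe sets and a floor at the array median.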

Additional observations from a re-analysis of the deposited data

How the results depend on the processing

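The median difference of the members lay between -0.03 and 0.04 under each alternative tried. The count of members at least 2-fold higher, 2 as reported, was 1 with a level filter at the 75th percentile, which removed Dnajb4, and 0 when all probe sets of a gene were averaged. The count at least 2-fold lower, also 2, was 0 with a filter at the 75th percentile or on both values, and 1 (Dnajb2) with readings under the array median raised to it. Averaging kept 2 lower members, but they were Dnajb2 and Dnajb14. All other alternatives left these counts within 1.5 times. Over 61 named members and 515 values under alternatives, 500 moved by less than the probe set SD of 0.22 and 15 by more. None past 2-fold changed sign. Many of the 500 could not move, so their number does not measure robustness. Level filters only add or drop genes and leave each difference unchanged. Centring shifts all genes alike, and averaging cannot move a gene with 1 probe set. All 15 larger moves came from the choice of probe sets or the floor at the array median. Averaging over probe sets brought Hsph1 to 0.48, Dnajb4 to 0.78 and Hspb11 to -0.64. Without probe sets of the shared types, Cct3 came to -1.27 and Dnajc2 to 1.44. No paired analysis was possible because each genotype has 1 array.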
